A study of Mus musculus with 6 samples.

Results

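The 34 genes described here encode chaperones, folding enzymes, degradation factors and stress sensors of the endoplasmic reticulum (ER), the compartment where secreted and membrane proteins are folded. They were named from knowledge of the unfolded protein response, with targets of the transcription factor ATF4 left out, and each was read by its brightest probe set carrying 1 gene symbol. All 34 were measured, among 19936 genes in all. Expression had been profiled on Affymetrix arrays of total RNA from mouse pre-B cells that BCR-ABL1 had transformed, an oncogenic fusion tyrosine kinase found in a form of acute lymphoblastic leukaemia. The cells were of C57Bl6 strain and wild-type genotype, from mice aged 4 weeks, and both groups carried BCR-ABL1 and a vector with green fluorescent protein (GFP). In 3 samples, called IKZF1 1 to 3, the vector was pMIG-IKZF1, which adds the lymphoid zinc finger transcription factor Ikaros. In the other 3, called empty vector 1 to 3, it was pMIG alone. RNA was taken from cells sorted for GFP 3 days after transduction. The labels give neither the species nor the isoform of the insert. They also do not state that the arrays within a group stem from different cultures or mice, so the p-values speak to the variation among these 6 samples, and that variation may be technical.

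Unfolded proteins in the ER activate the membrane sensors IRE1 (gene Ern1), PERK (Eif2ak3) and ATF6 (Atf6). IRE1 splices the Xbp1 mRNA into a form that encodes an active transcription factor, and ATF6 is cut by Golgi proteases so that its cytosolic part enters the nucleus. XBP1 and ATF6 then raise chaperones and degradation factors, with overlapping targets, while PERK slows translation and raises ATF4, a branch that amino acid shortage also engages. In B-lineage cells XBP1 is known for building the secretory apparatus of plasma cells. The arrays measured mRNA amounts per gene, and neither Xbp1 splicing nor ATF6 cleavage was measured.

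Median intensities of the arrays lay between 101.7 and 107.2 in the IKZF1 group and between 100.2 and 101.8 in the empty vector group. Ikzf1 itself read 13.09, 13.14 and 13.06 as log2(intensity + 1) on the IKZF1 arrays and 11.85, 11.78 and 11.98 on the empty vector arrays. All 34 ER genes lay above the background on every array, taken as the level below which 95% of the values of 1190 olfactory and vomeronasal receptor genes fell (6.18). All 10 measured pre-B cell markers were above it on some array. Their summed intensity ranged from 62784 to 66751 in the IKZF1 group and from 60782 to 68994 in the empty vector group. Rag2 was below the background on IKZF1 2 (6.03) and empty vector 2 (5.53). Of 10 myeloid markers 4 were above it on some array, with sums of 711 to 887 in the IKZF1 group and 646 to 702 in the empty vector group, and Csf1r, Elane, S100a8, S100a9, Cd14 and Csf3r were at background. The myeloid marker Fcgr3 was higher by 0.76 (adjusted p = 0.126, and 0.00876 with replicate number as a block). Lyz2, above background on empty vector 1 and 3 only, was lower by 0.47 (adjusted p = 0.204, and 0.109 with the block). Of the 10 myeloid markers 2 had a difference below 0. Of 8 T and NK cell markers 3 were above background on some array, and of these only Cd3e on every array. Their sums were 485, 621 and 484 on IKZF1 1, 2 and 3 and 441 to 454 in the empty vector group. Of the 8 T and NK cell markers 0 had a difference below 0. The part of these markers in the values of the ER genes was not tested.

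Of the 34 genes, 1 was higher, 0 were lower and 33 did not pass the threshold when IKZF1 cells were compared with empty vector cells, which addressed whether the ATF6 and XBP1 arms move when Ikaros is supplied. The one was Eif2ak3, the gene of the translation-controlling sensor PERK, 1.26-fold higher. In such bulk RNA, a change in the share of cells that express a gene and a change in its RNA per cell cannot be told apart. The threshold was a Benjamini-Hochberg adjusted p under 0.05 over all genes in limma. Members passed it at 2.94%, where 2.25% of all genes tested did, and at 1.12% of all genes in the upward direction. This fit had group as the only term. With replicate number as a block 2 members passed, Eif2ak3 upward and Dnajb9 downward (5.88%, where 7.21% of all genes passed). An unadjusted p under 0.05 was reached by 5 members (14.7%), against 18.4% of all genes. The 3 IKZF1 arrays lay all above the empty vector arrays for 5 members and all below for 6, or 32.4% together, where the shares over all genes were 15.2%, 11.3% and 26.5%.

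Most differences were small, at a share near that over all genes, and most were measured with enough precision to bound them. The log2 difference, IKZF1 minus empty vector, was under 0.2 in size for 25 of 34 members (73.5%, and 74.7% of all genes). Its 95% confidence interval lay wholly between -0.5 and 0.5 for 29 of 34 (85.3%, and 77.9% of all genes). The 5 with wider intervals were Ern1, Xbp1, Dnajb9, Derl3 and Wfs1. The median difference over the 34 was -0.05, with 23 below 0 (67.6%), where the median over all genes was 0.03 and 40.8% lay below 0. That count was 18 after cyclic loess, 19 after quantile normalization and 26 with arrays centred on their medians. The share of all genes below 0 was not counted under these scalings or at matched levels. Members lay at 7.55 or above on every array, where 9976 of 19936 genes had a mean level of at least 7. IKZF1 2 was the highest array for 36.5% of all genes and 14.7% of members. The part of level and scaling in the gap between the shares was not tested.

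**Figure D1:**
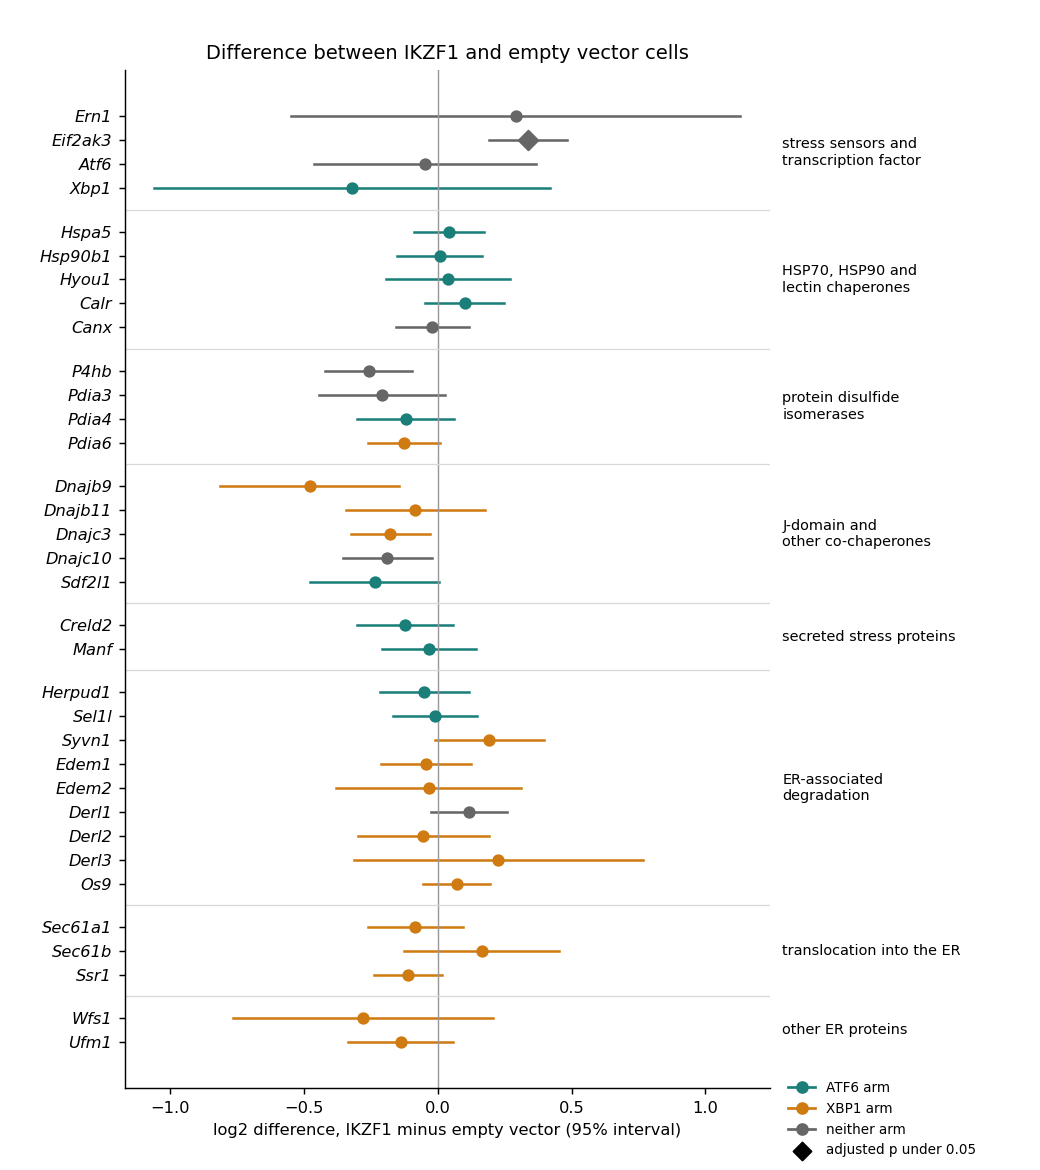
Log2 difference of each of the 34 ER genes (IKZF1 minus empty vector, horizontal axis) with its 95% interval from limma (bars), ordered by role, coloured by the arm of the response and with a diamond where the adjusted p was under 0.05. Eif2ak3 at 0.34 carries the one diamond, the chaperones lie between -0.02 and 0.10, and Ern1 and Xbp1 have the widest intervals.

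Among the sensors, Eif2ak3 read 10.69, 10.65 and 10.72 on the IKZF1 arrays and 10.35, 10.41 and 10.28 on the empty vector arrays. Every IKZF1 array was above every empty vector array. The difference was 0.34 ± 0.06 on the log2 scale (SE, n = 3 in each group; adjusted p = 0.0494 in limma). The call lay close to the threshold and was lost when any single array was left out: without IKZF1 1, 2 or 3 the adjusted p was 0.161, 0.109 or 0.165, and without empty vector 1, 2 or 3 it was 0.223, 0.0852 or 0.064. It was also lost after median centring of the arrays (adjusted p = 0.0829) and when the prior variance followed intensity (adjusted p = 0.0595). The difference itself stayed between 0.30 and 0.37 with any array left out, and was 0.29 after median centring. Over all genes, 24 to 947 passed with an array left out, against 448 with all arrays.

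Ern1, which encodes the kinase and nuclease IRE1, read 10.22, 10.22 and 9.89 on the IKZF1 arrays and 10.05, 10.42 and 8.99 on the empty vector arrays. Empty vector 3 was the lowest array by a wide margin and the groups overlapped (difference 0.29 ± 0.35, SE, adjusted p = 0.677). Atf6 gave 10.68, 10.69 and 10.62 in IKZF1 cells and 10.86, 10.98 and 10.30 in empty vector cells. Here too empty vector 3 was the lowest, and the difference was -0.05 ± 0.17 (adjusted p = 0.897). Xbp1 gave 11.90, 12.14 and 11.76 in IKZF1 cells and 12.57, 12.68 and 11.52 in empty vector cells. The IKZF1 arrays lay below empty vector 1 and 2 and above empty vector 3. With all arrays the difference was -0.32 ± 0.31 (95% interval -1.06 to 0.42, adjusted p = 0.605).

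**Figure D2:**
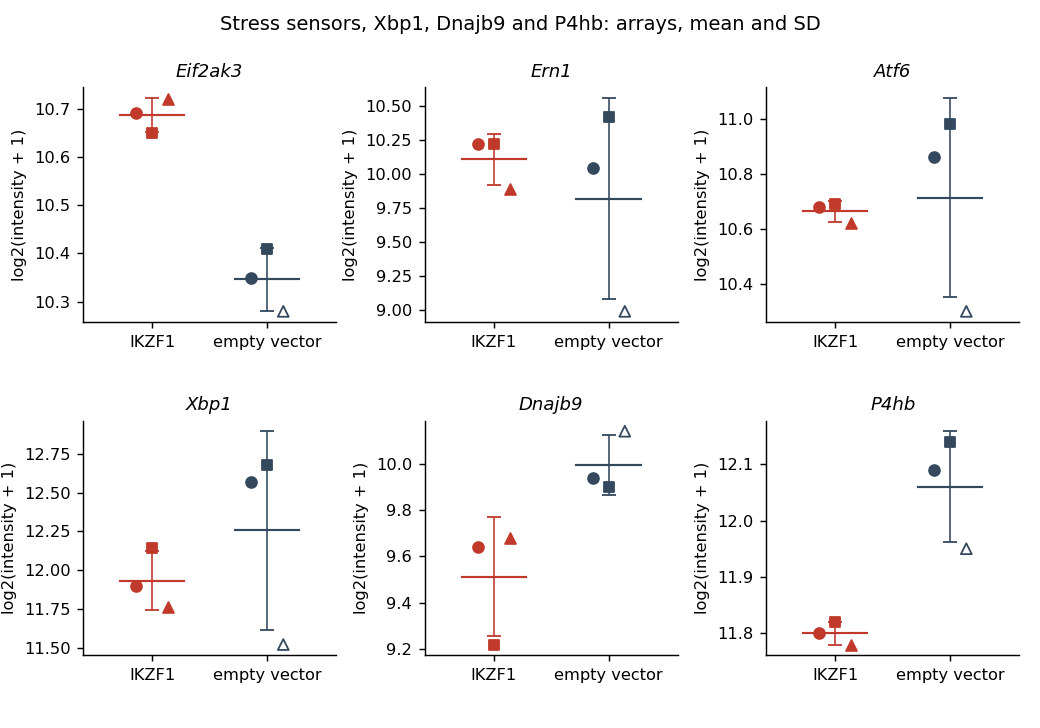
Log2(intensity + 1) on each array (points; circle, square and triangle for samples 1, 2 and 3; open triangle for empty vector 3) with the group mean (line) and SD (bar, n = 3), for Eif2ak3, Ern1, Atf6, Xbp1, Dnajb9 and P4hb. The groups do not overlap for Eif2ak3, Dnajb9 and P4hb, while empty vector 3 lies far below the other empty vector arrays for Ern1, Atf6 and Xbp1.

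Empty vector 3 stood apart for a large part of the list. It was the lowest of the 6 arrays for 13 of the 34 genes (38.2%, and 24.7% of all genes) and the highest for 10 (29.4%, and 22.3% of all genes). Without it, Xbp1 was lower in IKZF1 cells by a log2 difference of -0.69 ± 0.12 (SE, n = 3 IKZF1 and 2 empty vector arrays; adjusted p = 0.0301), while 4.75% of all genes passed. Xbp1 was the only member to pass in that fit. Ern1 then had a difference of -0.12 (adjusted p = 0.697) and Derl3 one of -0.03 (adjusted p = 0.912), both of the opposite sign to the value with all arrays, as were those of Hyou1 and Dnajb11. Atf6 had -0.26 (adjusted p = 0.125), P4hb -0.31 (adjusted p = 0.0553) and Sdf2l1 -0.34 (adjusted p = 0.052). Without empty vector 1 or 2 the difference of Xbp1 was -0.16 or -0.11 instead. The fit without empty vector 3 kept the same-numbered IKZF1 3. That array was the lowest IKZF1 array for Xbp1 (11.76), Ern1 (9.89) and Derl3 (8.10). With all arrays and replicate number as a block, Xbp1 had -0.32 (95% interval -0.77 to 0.13, adjusted p = 0.313 in limma).

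Plasma cell markers were set beside Xbp1, since they mark the cells in which it is most active. The immunoglobulin joining chain gene Jchain read 10.61, 10.38 and 10.29 in IKZF1 cells and 9.20, 9.56 and 6.90 in empty vector cells, so that it too was lowest on empty vector 3. The plasma cell regulator genes Prdm1 and Irf4 read 6.67 and 11.85 on empty vector 3, each the highest of the empty vector arrays. Of the 6 plasma cell markers 0 passed in limma, 3 had an unadjusted p under 0.05 (18.4% of all genes did), and Tnfrsf17 was at background. With replicate number as a block 2 passed, Prdm1 (1.17, adjusted p = 0.00427) and Slamf7 (1.10, adjusted p = 0.014), both higher in IKZF1 cells, where 7.21% of all genes passed. Prdm1 lay below the background on empty vector 1 (6.06) and empty vector 2 (5.74). The 6 markers' summed intensity was 3969 to 5156 in the IKZF1 group and 3560 to 4533 in the empty vector group. The part of these markers in the values of Xbp1 was not tested.

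**Figure D3:**
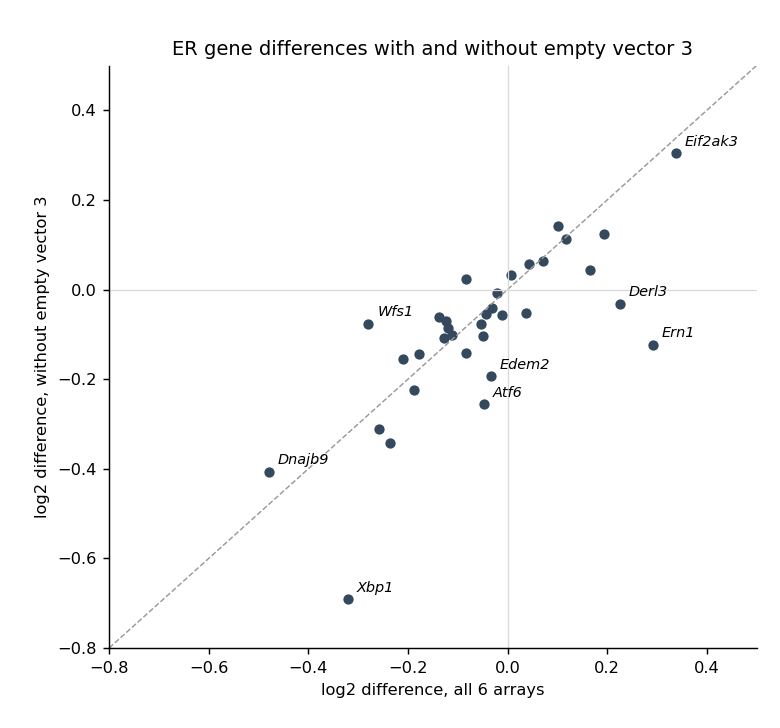
Log2 difference of each of the 34 ER genes (IKZF1 minus empty vector) from all 6 arrays (horizontal axis) and without empty vector 3 (vertical axis); the dashed line marks equal values. Xbp1 moves to -0.69, Ern1, Derl3, Hyou1 and Dnajb11 cross 0, and most other genes stay near the line.

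The chaperones differed little. Of the 5 HSP70, HSP90 and lectin chaperones, 0 passed in limma, also at an unadjusted p under 0.05. Hspa5, the HSP70 chaperone BiP and the standard marker of ER stress, read 12.36, 12.35 and 12.30 on the IKZF1 arrays and 12.30, 12.26 and 12.32 on the empty vector arrays. The groups overlapped, and the interval of the difference ran from -0.09 to 0.17 around 0.04. Hsp90b1, the HSP90 family chaperone GRP94, read 12.64, 12.57 and 12.68 in IKZF1 cells and 12.66, 12.54 and 12.68 in empty vector cells, a difference of 0.01 (95% interval -0.15 to 0.17). Hyou1, a large HSP70 relative that exchanges the nucleotide of BiP, had 0.04 (-0.19 to 0.27). Hspa5, Hsp90b1 and Hyou1 changed sign with arrays centred on their medians, so no direction is given for them. The lectin chaperones calreticulin (Calr) and calnexin (Canx), which hold newly glycosylated proteins, had 0.10 (-0.05 to 0.25) and -0.02 (-0.16 to 0.12). Calr was higher on all IKZF1 arrays, at 12.69, 12.71 and 12.69 against 12.59, 12.53 and 12.68, but the gap to empty vector 3 was narrow (adjusted p = 0.427).

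The DNA elements through which ATF6 and XBP1 act were searched for in the promoters of the list. The list holds textbook targets of these factors, so their share is no independent evidence. RefSeq promoter windows (GRCm38.p6, 250 bases before to 50 after the start of the gene) matched 29 of the 34 genes and were searched on both strands. The ER stress response element ERSE (CCAAT, any 9 bases, then CCACG) stood in 9 of the 29 and in 0.137% of 27025 genes with a window. ERSE-II (ATTGG, any base, then CCACG), its compact form, stood in Herpud1 and Dnajb11 and in 0.0444% of all genes. The core TGACGTGG of the XBP1 site stood in 0 of the 29 and 0.714% of all genes. The ATF4 element TGATGNAA (CARE) stood in 1 of the 29, Herpud1, and in 4.51% of all genes. It stood in 8 of 20 genes with a window on a comparison list of ATF4 targets. That list was likewise made of known targets, so its share is no independent evidence either. ERSE and ERSE-II both end in CCACG, so their matches can overlap. The 11 genes with an ERSE or ERSE-II had a median log2 difference of -0.02 (from -0.18 to 0.22), and the 18 with neither had -0.12 (from -0.48 to 0.34). One ERSE of each gene that held any is shown with 10 bases on either side, then both elements of Herpud1 and, for contrast, that of the ATF4 target Chac1. Capitals mark the fixed letters of each element, and each sequence is given 5′ to 3′ on the strand where the element reads forward.
Hspa5 (chr2:34772015-34772053, plus strand): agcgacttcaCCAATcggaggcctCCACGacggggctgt
Hsp90b1 (chr10:86705523-86705561, plus strand): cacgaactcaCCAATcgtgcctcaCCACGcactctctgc
Calr (chr8:84847065-84847103, plus strand): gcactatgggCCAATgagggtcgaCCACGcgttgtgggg
Canx (chr11:50325790-50325828, minus strand): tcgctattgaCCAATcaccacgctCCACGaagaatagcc
Pdia6 (chr12:17266481-17266519, plus strand): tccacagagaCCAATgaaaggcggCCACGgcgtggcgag
Dnajc3 (chr14:118937817-118937855, plus strand): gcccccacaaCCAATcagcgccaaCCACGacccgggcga
Creld2 (chr15:88819510-88819548, minus strand): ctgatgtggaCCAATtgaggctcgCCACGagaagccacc
Syvn1 (chr19:6046522-6046560, plus strand): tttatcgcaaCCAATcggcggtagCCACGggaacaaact
Derl3 (chr10:75893232-75893270, minus strand): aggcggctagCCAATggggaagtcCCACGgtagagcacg
Herpud1, ERSE-II (chr8:94386367-94386397, plus strand): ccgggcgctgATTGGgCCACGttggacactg
Herpud1, CARE (chr8:94386307-94386334, minus strand): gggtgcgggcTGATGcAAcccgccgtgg
Chac1, CARE (chr2:119351039-119351066, minus strand): ctggcaggagTGATGcAAcggcagggaa
These matches are descriptions of letters and do not show binding. Herpud1, which held an element of either branch, read 12.33, 12.35 and 12.27 in IKZF1 cells and 12.43, 12.41 and 12.26 in empty vector cells (difference -0.05, 95% interval -0.22 to 0.11). Chac1, whose product degrades glutathione, read 8.01, 8.28 and 7.93 in IKZF1 cells and 10.80, 10.40 and 10.62 in empty vector cells (adjusted p = 0.00139).

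All 4 protein disulfide isomerases, which form and reshuffle disulfide bonds, had differences below 0 (40.8% of all genes did), and none passed the threshold in limma. P4hb, the founding member of the family and a subunit of prolyl hydroxylase, read 11.80, 11.82 and 11.78 on the IKZF1 arrays and 12.09, 12.14 and 11.95 on the empty vector arrays. The groups did not overlap, and the difference was -0.26 ± 0.07 (SE, adjusted p = 0.119). Its unadjusted p was 0.00733, and with array weights its adjusted p was 0.0262, where 3 members passed (Eif2ak3, P4hb and Sdf2l1) and 7.43% of all genes did. Pdia6 read 10.82, 10.86 and 10.87 in IKZF1 cells and 10.99, 10.93 and 11.02 in empty vector cells, again without overlap (difference -0.13, adjusted p = 0.292). Pdia3, which acts with calreticulin and calnexin, had -0.21 (95% interval -0.45 to 0.03) and Pdia4 -0.12 (-0.30 to 0.06).

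Every one of the 5 co-chaperones also had a difference below 0 (40.8% of all genes did), though Dnajb11 had 0.02 without empty vector 3. Dnajb9, a J-domain protein that recruits BiP to IRE1 and is a known XBP1 target, read 9.64, 9.22 and 9.68 on the IKZF1 arrays and 9.94, 9.90 and 10.14 on the empty vector arrays. No IKZF1 array reached the lowest empty vector array, and IKZF1 2 was the lowest of all. The difference was -0.48 ± 0.14 (SE, n = 3 per group; adjusted p = 0.148), the most negative of the list. It passed with replicate number as a block (adjusted p = 0.0385), where 2 members passed, Eif2ak3 upward and Dnajb9 downward (7.21% of all genes passed, 3.85% downward). Dnajc3, which restrains PERK, read 10.47, 10.46 and 10.51 in IKZF1 cells and 10.66, 10.59 and 10.73 in empty vector cells (difference -0.18, adjusted p = 0.205). Dnajc10, a J-domain reductase of the degradation pathway, read 9.22, 9.06 and 9.16 in IKZF1 cells and 9.35, 9.40 and 9.26 in empty vector cells (difference -0.19, adjusted p = 0.227). Neither gene's groups overlapped. Sdf2l1, a partner of Dnajb11, had -0.24 (95% interval -0.48 to 0.01), with an adjusted p of 0.28, and of 0.0498 with array weights. Dnajb11 had -0.08 (-0.34 to 0.18).

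The secreted stress proteins Creld2 and Manf, both induced in ER stress, had differences of -0.12 (95% interval -0.30 to 0.05) and -0.03 (-0.21 to 0.14). Creld2 read 10.68, 10.75 and 10.73 in IKZF1 cells and 10.85, 10.72 and 10.95 in empty vector cells, and the groups overlapped.

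The 9 genes of ER-associated degradation, which returns misfolded proteins to the cytosol for the proteasome, stayed close to 0, with a median of -0.01 and 0 passing in limma, also at an unadjusted p under 0.05. Syvn1, the ubiquitin ligase HRD1, was higher on every IKZF1 array, at 11.24, 11.41 and 11.29 against 11.17, 11.21 and 10.98, by 0.19 (95% interval -0.01 to 0.40, adjusted p = 0.292). Derl1, a membrane protein of the export channel, was likewise higher on each IKZF1 array, by 0.12 (-0.03 to 0.26). Os9, a lectin that delivers glycoproteins to HRD1, differed by 0.07 (-0.05 to 0.20), also without overlap between the groups. Sel1l, the partner of HRD1, had -0.01 (-0.17 to 0.15). The mannosidase-like genes Edem1 and Edem2 had -0.04 and -0.03. Derl2 had -0.05, and Derl3, the family member most tied to XBP1, read 8.36, 8.41 and 8.10 in IKZF1 cells and 8.22, 8.43 and 7.55 in empty vector cells, with empty vector 3 again lowest.

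Genes of protein entry into the ER gave 0 of 3 past the threshold in limma and 0 with an unadjusted p under 0.05. Sec61a1 and Sec61b, subunits of the translocation channel, had differences of -0.08 (95% interval -0.26 to 0.09) and 0.16 (-0.12 to 0.45). Ssr1, of the translocon-associated protein complex, read 12.33, 12.35 and 12.34 on the IKZF1 arrays and 12.47, 12.41 and 12.47 on the empty vector arrays. Its arrays did not overlap between groups (difference -0.11, 95% interval -0.24 to 0.02). Wfs1, the wolframin membrane protein gene, read 7.82, 7.56 and 8.06 in IKZF1 cells and 7.94, 7.84 and 8.50 in empty vector cells (difference -0.28, -0.77 to 0.21). Its difference was -0.08 without empty vector 3, the highest array, and -0.15 without IKZF1 2, the lowest. Ufm1, a ubiquitin-like modifier that acts on ER proteins, had -0.14 (-0.34 to 0.06).

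**Figure D4:**
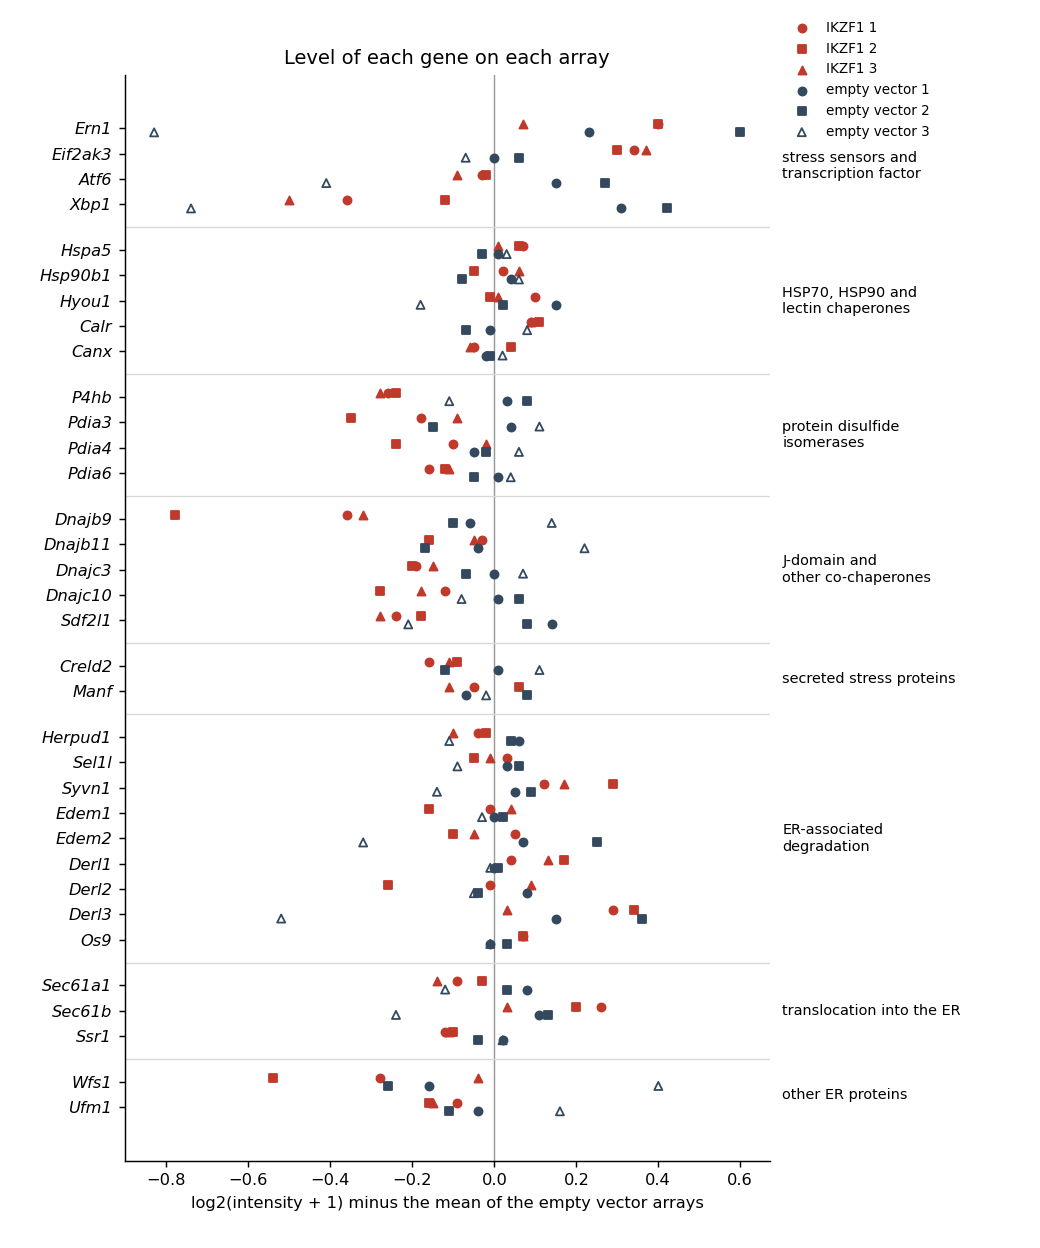
Level of each of the 34 ER genes on each array as log2(intensity + 1) minus the mean of the 3 empty vector arrays (horizontal axis), ordered by role, with IKZF1 arrays in red and empty vector arrays in dark blue (open triangle for empty vector 3). The spread of empty vector arrays is wide for Ern1, Atf6, Xbp1, Edem2, Derl3 and Wfs1 through empty vector 3, and IKZF1 2 lies lowest for Dnajb9.

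Assigned by textbook targets, 11 members belonged to the ATF6 arm and 15 to the XBP1 arm, and the assignment is approximate because the arms overlap. Of the ATF6 arm 0 of 11 passed in limma, also at an unadjusted p under 0.05, and the median difference was -0.03. Of the XBP1 arm 0 of 15 passed, 2 had an unadjusted p under 0.05 (Dnajb9 and Dnajc3, 13.3%), and the median was -0.08. Over all genes 2.25% passed, 18.4% had an unadjusted p under 0.05 and the median was 0.03. Xbp1 itself, of the ATF6 arm, passed without empty vector 3, and Dnajb9, of the XBP1 arm, passed with the replicate block. The interval bound farthest from 0 was -1.06 in the ATF6 arm, for Xbp1, and -0.81 in the XBP1 arm, for Dnajb9. A list of 22 genes of the ATF4 branch was read from the same fit, and was drawn up with earlier results of these arrays known. Of these, 15 fell (68.2%, where 1.13% of all genes fell), 0 rose, 7 did not pass, and the median was -0.81. The number that fell was 1 without IKZF1 1, 6 without IKZF1 2, 5 without IKZF1 3, 5 without empty vector 1, 9 without empty vector 2 and 18 without empty vector 3. The differences themselves changed less: 18 of the 22 had an unadjusted p under 0.05 in each of these fits, Cth stayed between -2.63 and -2.10 and Trib3 between -1.86 and -1.52. The number of all genes that passed ranged from 24, without IKZF1 1, to 947, without empty vector 3. The difference between the arms and the ATF4 list was not tested.

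**Figure D5:**
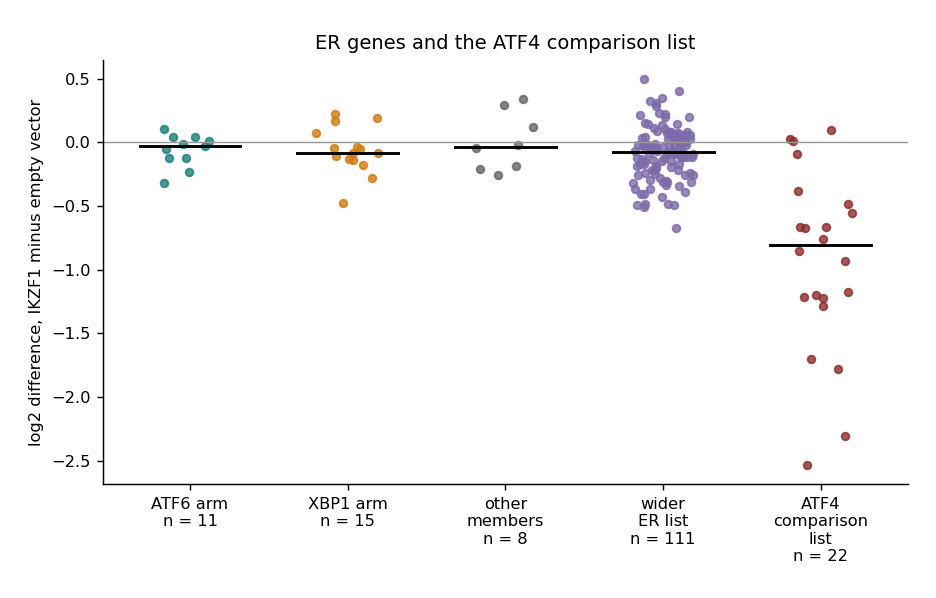
Log2 difference (IKZF1 minus empty vector, vertical axis) of each gene (points) of the ATF6 arm, the XBP1 arm, the other members, a wider ER list and the ATF4 comparison list, with the median of each as a black line. The arms and the wider list centre near 0, with medians of -0.03, -0.08 and -0.07, and the ATF4 list at -0.81.

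Beyond the 34, 111 of 118 further genes of the ER and the early secretory pathway were measured, of which 2 rose, 3 fell and 106 did not pass (4.50% passed, with 2.25% of all genes). Their median difference was -0.07 and 74 lay below 0 (66.7%), where all genes had a median of 0.03 and 40.8% below 0. As for the members, the part of level and scaling in this gap was not tested. An unadjusted p under 0.05 was reached by 35 of the 111 (31.5%), against 18.4% of all genes. The IKZF1 arrays lay all above the empty vector arrays for 15 and all below for 37. That was 46.8% together, where the shares over all genes were 15.2%, 11.3% and 26.5%. The calls fell mostly in folding and redox enzymes, with 1 of 24 higher and 3 lower. Of these 24 genes 13 had an unadjusted p under 0.05 (54.2%). With the replicate block 1 was higher and 8 were lower, where 7.21% of all genes passed and 3.85% did so downward. Those gained with the block were Tmx1 (-0.31), Tmx3 (-0.39), Dnajc1 (-0.68), Hspa13 (-0.37) and Mogs (-0.41). Ero1b, an oxidase that recharges protein disulfide isomerase, rose by 0.50 (adjusted p = 0.0353), and its paralog Ero1a had -0.49 (adjusted p = 0.202). Erp44, which retains Ero1 proteins in the early secretory pathway, fell by 0.49 (adjusted p = 0.0206), as did the saposin-like ER protein gene Cnpy2 by 0.49 (adjusted p = 0.015), and the thioredoxin-family gene Txndc12 fell by 0.37 (adjusted p = 0.0375). In degradation, the ubiquitin-conjugating enzyme gene Ube2g2 rose by 0.40 (adjusted p = 0.029) and 17 of 18 did not pass, among them Erlec1 (-0.51, adjusted p = 0.0512), Rnf5 (-0.31) and Tmem129 (-0.25). Erlec1, a lectin of the degradation pathway, passed with the replicate block (adjusted p = 0.0172), a larger pseudocount, the filter on low levels, quantile normalization, cyclic loess and array weights. Ero1a and the 5 genes gained with the block are named after their values were seen.

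Of 24 genes of translocation, signal peptide cleavage and N-glycosylation, 0 passed in limma and 20 had a difference below 0. An unadjusted p under 0.05 was reached by 4 (16.7%, and 18.4% of all genes). These 4 were the signal peptidase subunit gene Spcs2, which read 12.15, 12.14 and 12.14 on the IKZF1 arrays and 12.65, 12.65 and 12.42 on the empty vector arrays (-0.43, adjusted p = 0.0502), Ssr4 (-0.49, adjusted p = 0.0928), the signal recognition particle gene Srp72 (-0.28, adjusted p = 0.0937) and Ssr2 (-0.22, adjusted p = 0.18). Spcs2 passed with the replicate block (adjusted p = 0.0317), the one gene of the group to do so, and under several other settings, among them median centring (0.0425) and the trended prior (0.0302), but not after quantile normalization (0.056) or cyclic loess (0.0721). For each of the 4 genes, which were chosen by their p, the 3 IKZF1 arrays lay below the 3 empty vector arrays. The same held for 9 of the 24 genes of the group, and for 11.3% of all genes. Of 24 genes of ER to Golgi traffic 0 passed in limma, with 6 at an unadjusted p under 0.05 (25.0%). The smallest p were those of Tmed10 (-0.30), Kdelr1 (-0.34), Sec24a (0.33) and Lman1 (-0.25). Of 21 genes of stress signalling and the UFM1 pathway 0 passed in limma, with 8 at an unadjusted p under 0.05 (38.1%). These were led by Ufl1 (-0.34), Ddrgk1 (-0.24), Nfe2l2 (0.35) and Creb3l1 (0.29). Creb3l1 lay near the background of 6.18, at 6.32, 6.37 and 6.21 in IKZF1 cells and 5.88, 6.18 and 5.98 in empty vector cells. With the replicate block 12 of the 111 passed, 2 higher and 10 lower (10.8%, with 7.21% of all genes). None of the 5 calls held in each fit with an array left out. Without IKZF1 1, 2 or 3 or without empty vector 1 or 2, 0 passed in limma, with 20 to 30 at an unadjusted p under 0.05. Over all genes 0.12% to 0.818% passed in these fits. Without empty vector 3, 14 passed, where 4.75% of all genes did. The differences of the 5 stayed close to those with all arrays, between -0.51 and -0.47 for Cnpy2, -0.52 and -0.47 for Erp44, -0.39 and -0.33 for Txndc12, 0.44 and 0.54 for Ero1b and 0.37 and 0.42 for Ube2g2. Scaling alone ended the call of Ero1b after median centring (adjusted p = 0.065), and that of Txndc12 after quantile normalization (0.0565) and cyclic loess (0.0653).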

How the data were processed

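Of 6 Affymetrix arrays, 3 were IKZF1 and 3 empty vector, grouped by sample titles. Per the submitters' processing notes the authors used RMA (robust multi-array average), with no version or parameters stated there. The deposited table holds intensities on a linear scale, from 11.1 to 23523, as read from the values. RMA includes quantile normalization, which would reduce shifts common to most genes. From these, log2(intensity + 1) was computed. Of 35421 probe sets, 21789 carried 1 gene symbol, 1621 several and 12011 are unnamed here; the brightest stood for the gene where there were several (1001 genes), leaving 19936. Arrays carry no read depth; their number limits precision.

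The group difference was fitted by lmFit and eBayes (limma 3.58.1, R 4.3.3) with group as the only term, 2-sided, adjusted by Benjamini-Hochberg over 19936 genes. The fit was tested on simulated data. The members and gene lists were chosen with earlier results of these data known. Named were Ikzf1, all 34 members and up to 4 genes per further list, taken by size among those that passed and otherwise by lowest p; exceptions are stated, and markers were named as context. Of 118 wider ER genes 111 had a probe set of 1 symbol. Alternatives changed the pseudocount, filter, probe set rule, scaling, prior, array weights, block and arrays.

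Replicate numbers are shared between groups in the titles. Deviations from group means of same-numbered arrays correlated over genes with r = 0.24, 0.60 and 0.66, all above the limit of 0.1, so the numbers were taken as pairs; IKZF1 2 with empty vector 1 also reached 0.11. The block's value is given beside a named result whose call it changes. Unless another setting is named, SEs, intervals and adjusted p come from the fit without the block, which leaves the pairs out.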

Additional observations from a re-analysis of the deposited data

How the results depend on the processing

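The 34 members under 15 other settings gave 510 values, of which 468 kept direction and side of the threshold, 30 changed sign, 8 lost the call (Eif2ak3) and 4 gained one; 20 members never changed sign. With the replicate block 1438 genes, 2 members, 1 member of the XBP1 arm and 12 wider ER genes passed; the ATF4 list gave 17 and the ATF6 arm 0, and among the members the block changed the call of Dnajb9 and no other. Array weights, whose estimation stopped short of its tolerance, gave 1481 genes, 3 members, 1 in the ATF6 arm and 18 wider ER genes, and Hyou1 at -0.036. With centring or a trended prior 0 members passed in limma (8 and 6 at an unadjusted p under 0.05). Centring gave a member median of -0.092, with Hspa5 at -0.0009, Hsp90b1 at -0.037 and Hyou1 at -0.0053. Quantile normalization gave a median of -0.017, with Canx 0.046, Manf 0.012, Sel1l 0.024 and Edem2 0.0033. Cyclic loess gave -0.0016, with Canx 0.029, Herpud1 0.0001, Sel1l 0.036, Edem1 0.0057 and Edem2 0.0074. Leaving out 1 array gave 24 to 947 genes, 0 to 1 member, 0 to 1 in the ATF6 arm, 0 in the XBP1 arm, 0 to 14 wider ER genes, 1 to 18 of the ATF4 list and a median of -0.073 to -0.034. Signs then changed for Ern1 (-0.12 to 0.59), Atf6 (-0.26 to 0.085), Hsp90b1 (-0.036 to 0.036), Hyou1 (-0.053 to 0.12), Dnajb11 (-0.17 to 0.024), Manf (-0.079 to 0.011), Sel1l (-0.056 to 0.020), Edem1 (-0.084 to 0.015), Edem2 (-0.19 to 0.090), Derl2 (-0.13 to 0.046) and Derl3 (-0.032 to 0.41). The cause was not tested; with 1 array fewer the fits have fewer samples. Ikzf1 kept its direction and call in each setting run.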

Other observations

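Without empty vector 3, 14 of the 111 wider ER genes passed in limma, 11 lower and 3 higher (12.6%, with 4.75% of all genes); they were looked at after the values of Xbp1 were seen. The 3 higher were Ero1b, Ube2g2 and Nfe2l2, and the lower included the folding and redox genes Ero1a, Txndc12, Erp44, Sil1 and Cnpy2. Sec24d, of the coat of vesicles leaving the ER, had a log2 difference (IKZF1 minus empty vector) of -1.13 (adjusted p = 0.0178), against -0.24 (adjusted p = 0.873) with all arrays. The cargo receptor gene Tmed3 had -0.72 (0.0178), against -0.41 (0.442) with all arrays. The oxidase gene Ero1a had -0.68 (0.0141), the translocon-associated gene Ssr4 -0.61 (0.0113), Spcs2 -0.50 (0.0138) and Sil1, a nucleotide exchange factor of BiP, -0.40 (0.0307).

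Several members had more than 1 probe set of their own symbol. The 2 of Dnajc3 held identical values. For Pdia4 they gave -0.12 and -0.25, for Ufm1 -0.14 and -0.04, and for Sec61b 0.16, 0.04 and 0.05.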
